A study of Mus musculus with 2 samples.

Results

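Scavenger receptors are cell-surface or lysosomal proteins that bind oxidized or acetylated lipoproteins, microbes and dying cells. The classical ones are not shut down by the cell's own Chol, so that macrophages which express them can fill with Chol ester and become foam cells. In the liver, Kupffer cells, the resident macrophages, and the sinusoidal endothelium clear modified LDL from the blood with different receptors. The genes examined here are 10 receptors of this kind, taken by name from the array annotation: Msr1, Cd36, Marco, Scarb1, Olr1, Cd68, Stab1, Stab2, Cd163 and Mrc1. They were covered by 14 of the 41174 probes on the array, and 9 of the 10 genes were among the 16730 genes tested.

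The RNA came from the liver of male C57BL/6 mice that lacked the apoE gene (apoE-KO), which clear remnant lipoproteins slowly and are hypercholesterolemic on any diet. One group stayed on normal chow and the other was given chow to which 1.25% Chol had been added (high-Chol diet), from 10 weeks of age and for 1 week before the RNA was taken. Every array was from apoE-KO mice, so no comparison with wild-type liver could be made, and whether a single mouse or a pool stood behind an array was not given in the sources used here. There were 3 one-colour arrays on each diet, from independent experiments, and p-values measure the spread between these arrays. Array numbers below serve as names only.

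All 3 normal chow arrays and high-Chol array 1 lay on slide 1, and high-Chol arrays 2 and 3 lay on slide 2, so that slide and diet overlap in part. The 75th percentile of the spot intensities was 271 to 325 on the normal chow arrays and 373 on high-Chol array 1, all on slide 1. It was 799 and 762 on high-Chol arrays 2 and 3, so that brightness split by slide. In the normal chow and high-Chol groups, 50.5 to 63.0% and 62.1 to 67.2% of the spots, respectively, were well above background. Pearson's r between arrays, across genes, was 0.976 to 0.991 within a diet and 0.956 to 0.982 between the diets. All levels below are log2 intensities relative to the 75th percentile of the same array, and differences are high-Chol minus normal chow on that log2 scale. Probes differ in brightness for reasons other than the amount of RNA, so levels were compared between diets for each probe and not between genes. The probe for Apoe gave a signal on all 6 arrays that did not separate the diets, and since its place relative to the deleted part of the gene was not given, it checks nothing.

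Liver markers were in place. All 15 markers of Kupffer cells and macrophages, all 17 endothelial markers and 9 of the 10 hepatocyte markers were on the array and well above background on every array of at least 1 diet.

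Among the 9 receptors tested, 3 rose on the high-Chol diet and none fell by limma with an adjusted p below 0.05, against 2.69% of all genes called higher and 0.227% called lower. The 3 were Cd68, Marco and Msr1, each 2.92- to 3.55-fold higher. None of these 3 calls held with slide as a block, as described below. The diets did not overlap for 4 receptors that were higher and 1 that was lower, while this was the case for 11.9% and 14% (25.8% in either direction) of all genes with values on all 6 arrays. The median difference of the 9 receptors was 0.54, compared with -0.02 for all genes, and 7 of the 9 differences were above 0 (47.8% of all genes). The median was 0.36 with slide as a block and 0.30 with arrays scaled to their median, a scaling that moved the median of all genes to -0.26. In RNA of whole liver, fewer cells of a type and less RNA per cell cannot be told apart.

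**Figure D1:**
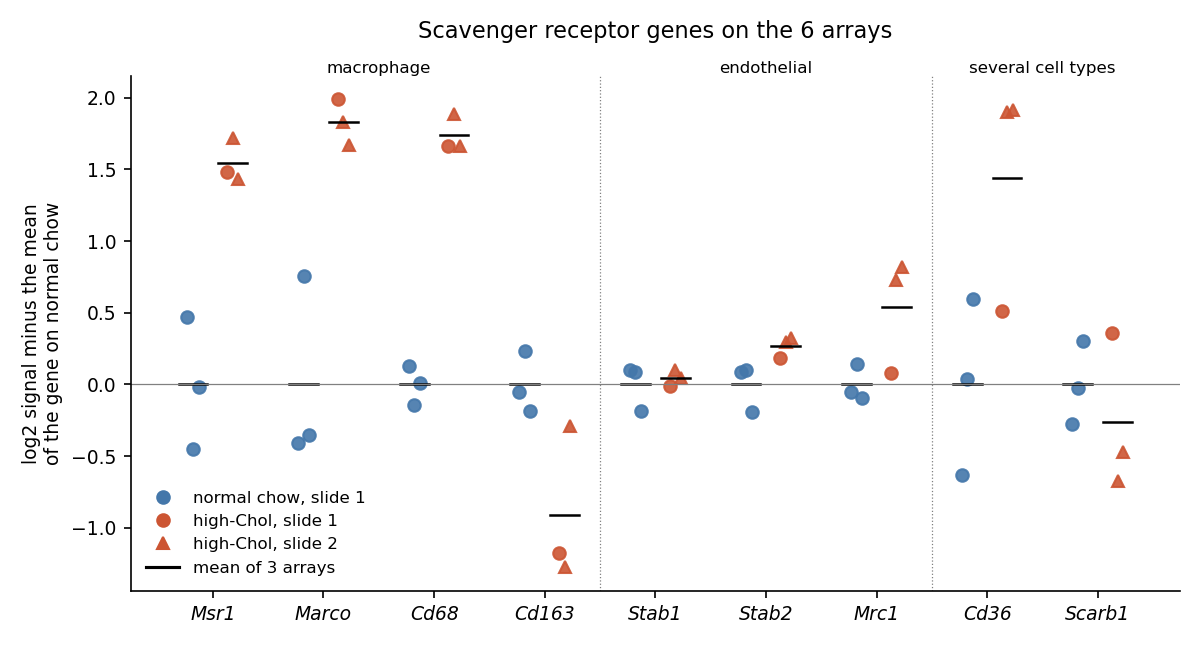
Log2 signal of each receptor gene on each of the 6 arrays, relative to the mean of that gene on normal chow; circles are arrays of slide 1, triangles arrays of slide 2, and bars the mean of 3 arrays. The high-Chol arrays lie above all normal chow arrays for Msr1, Marco, Cd68 and Stab2 and below them for Cd163, whereas those of Stab1, Mrc1, Cd36 and Scarb1 overlap.

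Promoters of 4 receptors are shown first, namely those of the 2 receptors that rose and have an entry in the RefSeq promoter table (Marco and Cd68), of the macrophage receptor that lay lower (Cd163), and of an endothelial receptor (Stab2). The table held 8 of the 10 receptors. Each sequence is the 250 bases before the gene start, 5′ to 3′ on the strand of the gene, from build GRCm38.p6, with capitals at matches to any of 3 motifs searched on both strands. These were GAGGAA (core of sites for PU.1, a factor of myeloid cells), TGANTCA (AP-1) and AGGTCA (core letters of sites for nuclear receptors such as PPAR and LXR). The regions are chr1:120505025-120505274 (minus strand) for Marco, chr11:69666171-69666420 (minus) for Cd68, chr6:124304401-124304650 (plus) for Cd163 and chr10:87007943-87008192 (minus) for Stab2.
Marco: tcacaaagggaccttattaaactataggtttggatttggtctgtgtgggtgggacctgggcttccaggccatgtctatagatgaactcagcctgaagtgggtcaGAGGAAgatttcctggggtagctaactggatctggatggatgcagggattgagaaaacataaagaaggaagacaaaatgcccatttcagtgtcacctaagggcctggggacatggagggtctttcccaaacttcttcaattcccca
Cd68: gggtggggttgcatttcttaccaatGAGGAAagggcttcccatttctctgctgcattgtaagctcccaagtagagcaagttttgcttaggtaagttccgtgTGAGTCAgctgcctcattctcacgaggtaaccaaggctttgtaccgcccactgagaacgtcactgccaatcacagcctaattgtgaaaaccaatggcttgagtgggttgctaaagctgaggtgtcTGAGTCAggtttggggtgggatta
Cd163: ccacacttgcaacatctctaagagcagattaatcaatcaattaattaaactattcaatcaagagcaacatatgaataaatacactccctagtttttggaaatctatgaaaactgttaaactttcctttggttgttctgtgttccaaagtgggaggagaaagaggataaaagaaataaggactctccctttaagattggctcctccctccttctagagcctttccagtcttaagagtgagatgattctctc
Stab2: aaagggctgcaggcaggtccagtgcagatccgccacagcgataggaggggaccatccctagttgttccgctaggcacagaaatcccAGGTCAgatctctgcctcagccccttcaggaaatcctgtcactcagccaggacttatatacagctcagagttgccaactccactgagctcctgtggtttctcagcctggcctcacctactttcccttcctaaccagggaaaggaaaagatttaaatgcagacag
GAGGAA occurred once in the Marco promoter, 146 to 141 bases before the start, and once in that of Cd68, 225 to 220 bases before it. The Cd68 promoter also held TGANTCA at 149 to 143 and at 24 to 18 bases before the start. The Stab2 promoter held only AGGTCA, 164 to 159 bases before the start, and that of Cd163 none of the 3 motifs. Over all 8 receptor promoters, 5 held GAGGAA (Cd68, Marco, Mrc1, Olr1 and Stab1), 2 held TGANTCA (Cd68 and Olr1) and 3 held AGGTCA (Cd36, Olr1 and Stab2). Of the 32851 promoters in the table, 23.3%, 6.75% and 14% did so. Such matches of letters describe the windows and show no binding.

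Cd68, also called macrosialin, is a lysosomal glycoprotein of macrophages that binds oxidized LDL. With normal chow its level was 0.12, -0.15 and 0.00, and high-Chol arrays 1, 2 and 3 gave 1.65, 1.88 and 1.65. The diets were 1.53 apart at their nearest arrays, and the arrays of each diet lay close together (SD 0.14 for normal chow and 0.13 for high-Chol, n = 3 each). Cd68 rose by 1.74 ± 0.15 (SE), or 3.34-fold, with an adjusted p of 0.0060 by limma. The probe lies at chr11:69746386-69746445 (mm7, minus strand).

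Marco, a class A receptor with a collagenous stalk, is found on Kupffer cells and on macrophages of the splenic marginal zone. Levels of 3.40, 4.56 and 3.45 were found in the normal chow group, and of 5.79, 5.63 and 5.47 in the high-Chol group. Normal chow array 2 stood more than 1 log2 unit above the other two and still 0.91 below the lowest high-Chol array. Marco rose by 1.83 ± 0.32 (SE), or 3.55-fold (adjusted p of 0.035 by limma), and gave the largest difference of the 9 receptors. Its probe lies at chr1:120342087-120342147 (mm7, minus strand).

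Msr1 encodes the class A scavenger receptor SR-A, the main route for uptake of acetylated LDL by macrophages. The brightest of its 3 probes, at chr8:38396605-38398766 (mm7, minus strand), covers 2162 bases of genome with 60 bases of probe. Msr1 was -0.83, -1.75 and -1.31 in the normal chow group and 0.19, 0.42 and 0.13 in the high-Chol group, so that the nearest arrays of the diets were 0.96 apart. It rose by 1.55 ± 0.25 (SE), or 2.92-fold, with an adjusted p of 0.026 by limma, and the difference was 0.84 with a normexp background. The other two probes, at chr8:38414609-38414668 and chr8:38394471-38394530, gave differences of 1.51 and 1.29 with adjusted p-values of 0.034 and 0.041 by limma over all probes. All 3 Msr1 probes separated the diets without overlap.

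Cd163, the receptor for haptoglobin-bound hemoglobin on resident macrophages, had the opposite sign. Levels were -0.27, 0.02 and -0.40 in the normal chow group and -1.39, -1.49 and -0.51 in the high-Chol group. High-Chol arrays 1 and 2 were clearly below the normal chow arrays, whereas high-Chol array 3 was 0.11 below the lowest of them. The difference of -0.91 ± 0.28 (SE), 1.88-fold lower, did not pass (adjusted p of 0.15 by limma, unadjusted p of 0.015), and an exact permutation test of 3 against 3 arrays cannot give a two-sided p below 0.1. Cd163 kept its sign in all 15 alternatives tried, between -1.22 and -0.51.

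The endothelial receptors moved less. Stab1 and Stab2 (stabilin-1 and -2) are large receptors of the sinusoidal endothelium that take up hyaluronan, advanced glycation products and modified LDL, and Mrc1, the mannose receptor, is made by the sinusoidal endothelium and by Kupffer cells. None of the 3 was called by limma. Mrc1 alone had an unadjusted p below 0.05 by limma, which 21.2% of all genes had.

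Stab1 was 1.57, 1.55 and 1.28 in the normal chow group and 1.45, 1.57 and 1.51 in the high-Chol group, which differed by 0.04 ± 0.15 (SE; adjusted p of 0.88 by limma). The high-Chol arrays fell within the range of the normal chow arrays or next to its upper end. The direction of Stab1 was not settled, since the difference was -0.19 with arrays scaled to their median and -0.01 with slide as a block. A second, dimmer Stab1 probe gave 0.30 (adjusted p of 0.38 by limma over all probes), and -0.48 with a normexp background.

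Stab2 was 1.51, 1.52 and 1.23 in the normal chow group and 1.61, 1.72 and 1.75 in the high-Chol group. Each high-Chol array was above every normal chow array, by 0.08 at the nearest. The difference was 0.27 ± 0.15 (SE), or 1.21-fold, with an adjusted p of 0.34 by limma, and it fell to 0.03 with scaling to the median.

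Mrc1 was 0.75, 0.94 and 0.71 in the normal chow group and 0.88, 1.53 and 1.62 in the high-Chol group. The array of slide 1 lay among the normal chow arrays, and both arrays of slide 2 above them. The difference of 0.54 ± 0.22 (SE; adjusted p of 0.23 by limma) was 0.08 within slide 1, and 0.77 without high-Chol array 1 (adjusted p of 0.021 by limma). Without that array, 18.4% of all genes were called.

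Cd36 and Scarb1 are class B receptors made by several liver cell types. Cd36, which takes up oxidized LDL and long-chain fatty acids, was 0.50, 1.16 and 1.72 in the normal chow group and 1.64, 3.03 and 3.04 in the high-Chol group. The high-Chol array of slide 1 was below normal chow array 3, and both arrays of slide 2 were above all 3 normal chow arrays. The difference was 1.44 ± 0.46 (SE), or 2.72-fold (adjusted p of 0.16 by limma), and 0.51 within slide 1. A second Cd36 probe gave 1.07 (adjusted p of 0.17 by limma over all probes). Without high-Chol array 1, the difference of Cd36 was 1.91 with an adjusted p of 0.016 by limma.

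Scarb1 (SR-BI), the receptor for selective uptake of HDL Chol ester by hepatocytes, was 3.64, 3.89 and 4.23 in the normal chow group and 4.28, 3.25 and 3.45 in the high-Chol group. The high-Chol arrays of the slides differed here as well, with high-Chol array 1 the highest of all 6 arrays and arrays 2 and 3 the lowest. The difference was -0.26 ± 0.30 (SE; adjusted p of 0.62 by limma), and it turned to 0.36 within slide 1 and to 0.08 with a normexp background, so that no direction can be given.

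Olr1 encodes LOX-1, an oxidized LDL receptor of the endothelium of large vessels. Its probe was not well above background on any of the 6 arrays, with intensities of 2.0 to 5.0 in the normal chow group and 2.4 to 17.5 in the high-Chol group. It did not enter the test, and no fold is given.

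The arrays of the high-Chol diet on the 2 slides differed for some receptors and not for others. A slide effect cannot be told apart from the RNA of high-Chol array 1, the only high-Chol array on slide 1. With slide as a block, which compares high-Chol array 1 with the 3 normal chow arrays beside it, the differences were 1.66 for Cd68, 1.99 for Marco and 1.49 for Msr1, close to those from all 6 arrays. Their adjusted p-values in that fit were 0.083, 0.25 and 0.27 by limma, so that no receptor was called, and 0.0658% of all genes were. At an unadjusted p below 0.05, 4 receptors passed with the block, namely Cd68, Marco, Msr1 and Cd163 (9.1% of all genes). By contrast, the block moved Cd36 from 1.44 to 0.51, Mrc1 from 0.54 to 0.08 and Scarb1 from -0.26 to 0.36. Cd68 was called with any 1 array left out, whereas Msr1 lost its call without normal chow array 2 or 3 or high-Chol array 2 or 3, and Marco without normal chow array 1 or 3 or high-Chol array 2 or 3. The calls of all 3 were lost as well with a normexp background and without the filter on dim probes, at differences of 0.84 to 2.07.

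**Figure D2:**
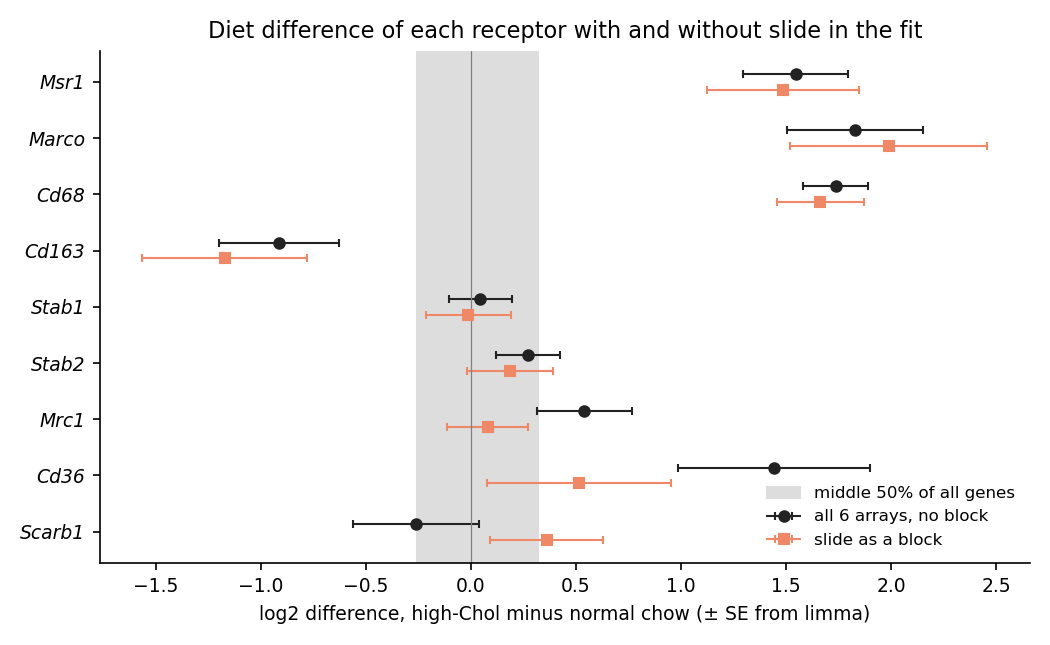
Difference between the diets (log2, high-Chol minus normal chow) for each receptor with its SE from limma, from all 6 arrays (circles) and with slide as a block (squares); the grey band holds the middle 50% of all 16730 genes. Msr1, Marco and Cd68 lie right of the band and Cd163 left of it in both fits, whereas Cd36 and Mrc1 move towards 0 with the block and Scarb1 crosses it.

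The macrophage receptors (Msr1, Marco, Cd68 and Cd163) were then set against the endothelial receptors (Stab1, Stab2 and Mrc1). The mean of the macrophage receptors, relative to normal chow, was 0.99, 1.04 and 1.12 on the 3 high-Chol arrays, and that of the endothelial receptors 0.08, 0.37 and 0.40. The macrophage mean minus the endothelial mean was therefore 0.91, 0.67 and 0.72, compared with -0.01, -0.01 and 0.02 on normal chow. The diets differed by 0.76 in this score (SD 0.13 for high-Chol and 0.02 for normal chow, n = 3 each), which is given as a description without a p-value. Of the 4 macrophage receptors, 3 gave values above 1.5 and the fourth, Cd163, gave a value below 0, so that the class did not move as a unit.

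**Figure D3:**
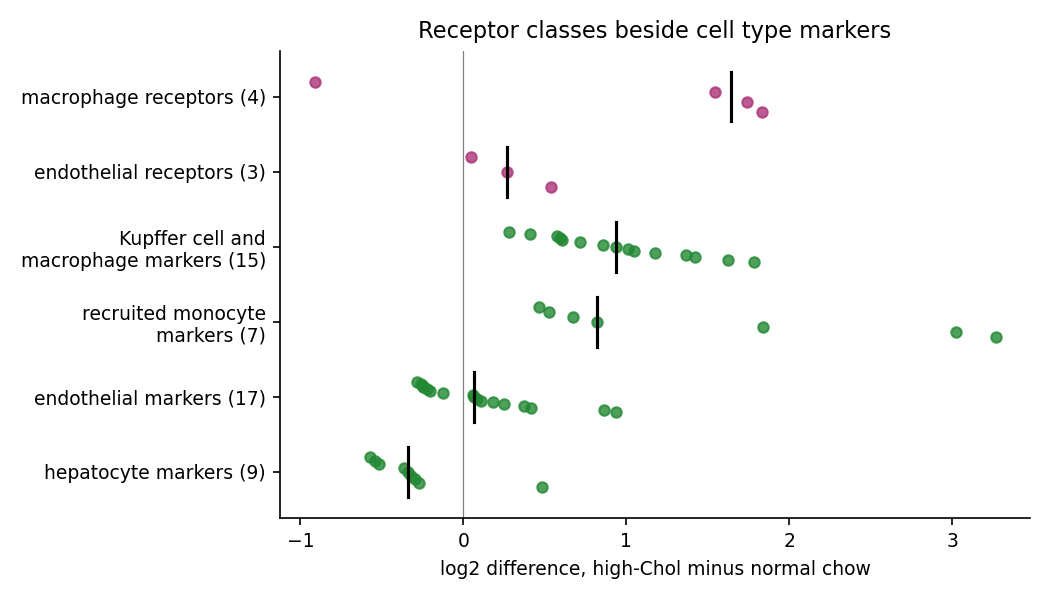
Difference between the diets (log2, high-Chol minus normal chow) of each macrophage and endothelial receptor and of each tested marker of 4 cell types, 1 point per gene, with a bar at the median and the number of genes in brackets. Msr1, Cd68 and Marco (1.55, 1.74 and 1.83) lie near the upper end of the Kupffer cell and macrophage markers (0.28 to 1.78) and Cd163 (-0.91) below all of them, and the endothelial receptors lie within the range of the endothelial markers.

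Markers of the liver's cell types were set beside the receptors. All 15 Kupffer cell and macrophage markers were higher on the high-Chol diet (47.8% of all genes were) and 8 rose by limma (2.69% of all genes). The median difference of the 15 was 0.93, with a range of 0.28 to 1.78. The 8 were Lyz2 (lysozyme, 1.78), Tyrobp (1.62), Cd5l (1.42), Laptm5 (1.37), Fcer1g (1.18), Aif1 (1.05), Mpeg1 (1.01) and C1qc (0.93). With slide as a block none of the 15 was called (adjusted p-values of the 8 from 0.091 to 0.36 by limma), and the median was 0.74. Of the genes particular to resident Kupffer cells, Cd5l is among the 8, whereas Timd4 (0.86), Vsig4 (0.58) and Clec4f (0.41) did not pass, although the diets did not overlap in any of the 3. The mean change of the list from normal chow was -0.07 to 0.10 on the normal chow arrays and 0.82 to 1.08 on the high-Chol arrays. Its summed signal, in which the brightest probes weigh most, was 199 to 233 with normal chow and 430 to 591 with high Chol, in units of the 75th percentile of each array.

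Of the 7 recruited monocyte markers tested, the 4 with signal well above background on each of the 6 arrays gave differences of 0.47 to 0.82, with none called and all 4 at an unadjusted p below 0.05 by limma. Itgax (3.27), Ccr2 (3.02), a chemokine receptor of monocytes, and Cx3cr1 (1.84) were well above background on 2, 1 and 1 of the 3 normal chow arrays. They entered the test through the high-Chol arrays, which favours a higher value there, and the calls of Itgax and Ccr2 are not counted as rises for this reason. None of the 17 endothelial markers was called, 10 lay above 0 and 7 below, the median was 0.07, and the largest differences were those of Cdh5 (0.94) and Clec1b (0.86). Their summed signal was 80.2 to 85.9 with normal chow and 82.3 to 88.8 with high Chol. None of the 9 hepatocyte markers was called, and 8 lay below 0 with a median of -0.34, Apoa1 (-0.57) and Asgr1 (-0.54) being the lowest. With slide as a block the median of the hepatocyte markers was -0.16, and Apoa1 and Asgr1 gave -0.09 and -0.32. The summed signal of the 9 markers was 1987 to 2271 with normal chow and 1538 to 1789 with high Chol. At an unadjusted p below 0.05, limma gave 2 endothelial markers higher and none lower, and 1 hepatocyte marker higher and 2 lower. Over all genes, 21.2% had such a p in either direction. The part of cell numbers in the receptor differences was not tested.

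The change of each receptor was then compared with that of the markers. For every array, the change of a gene from its own mean on normal chow was taken, and the mean change of the 15 Kupffer cell and macrophage markers was subtracted (14 of them on high-Chol array 2, where Adgre1 had no usable spot). These are differences between changes and not between levels. Cd68 exceeded the change of the markers by 0.85, 0.80 and 0.66 on the high-Chol arrays and Msr1 by 0.67, 0.64 and 0.42, and neither overlapped normal chow. The excess of Marco was 1.17, 0.74 and 0.67, but normal chow array 2 (0.79) fell among these values. For Cd163 the same quantity was -1.99, -2.36 and -1.30 (mean -1.88, SD 0.54, n = 3), with no overlap. The mean change of the markers was 0.82 to 1.08 on the high-Chol arrays. A gene without change therefore falls below normal chow in this quantity. Stab1, Stab2, Mrc1 and Scarb1 did so too without overlap (means -0.92, -0.70, -0.43 and -1.23 on the high-Chol arrays). The lack of overlap is thus not particular to Cd163. With the mean change of the 17 endothelial markers subtracted instead, Stab1 (-0.06 ± 0.04, SD) was within the spread of normal chow, and Stab2 (0.17 ± 0.06) gave 0.11 to 0.22 on the high-Chol arrays, above the highest normal chow array (0.09). Mrc1 gave 0.00, 0.61 and 0.71 (0.44 ± 0.38, SD, n = 3) and overlapped normal chow.

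The receptors act together with other proteins, and genes of 5 related groups were counted. Where a group had no call in a direction, at most 3 of its genes had an unadjusted p below 0.05 in that direction by limma. Over all genes, 21.2% had such a p in either direction. With slide as a block, Tlr2 was the only gene of the 5 groups that was called (adjusted p of 0.036 by limma). Among 14 further scavenger and pattern-recognition receptors tested, 3 rose and none fell, with a median of -0.06. Over all genes, 2.69% were called higher and 0.227% lower. The 3 were Clec7a (dectin-1, 3.02), Tlr4 (1.44) and Axl (1.24), a receptor for dying cells. With the block they gave 2.27, 0.88 and 1.06. Cxcl16, a chemokine that also binds oxidized lipids as a membrane protein, gave 0.90 with an adjusted p of 0.052 by limma. The class A receptors Scara5 (-2.09) and Scara3 (-0.84) lay lower and did not pass (adjusted p-values of 0.15 and 0.20 by limma). The diets overlapped in both, and with the block they gave -1.32 and -0.21.

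Of 10 partners through which Cd36 and Msr1 signal, 9 were well above background on all 6 arrays. Of these 9, 4 rose and none fell, with a median of 1.12 (0.90 for all 10). Over all genes, 2.69% were called higher and 0.227% lower. The 4 were Tlr2 (2.48), Tlr6 (1.35), Btk (1.12) and the kinase Syk (1.12), whereas Lyn and Fyn, kinases bound by Cd36, gave 0.23 and 0.52 and did not pass. Of 13 enzymes that oxidize lipoproteins or remove the products, 4 rose and none fell (median 0.73). Among them were Cyba (1.70) and Ncf4 (1.04), subunits of the phagocyte NADPH oxidase, and Pla2g7 (1.25), which hydrolyses oxidized phospholipids. The paraoxonases of HDL, Pon1, Pon2 and Pon3, gave -0.30, -0.15 and -0.23 and did not pass.

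Of 14 genes grouped under sterol handling after uptake, 3 rose and none fell, with a median of 0.10. Over all genes, 2.69% were called higher and 0.227% lower. The 3 were Soat1 (1.19), which esterifies Chol in foam cells, Abcg1 (1.28), which exports it to HDL, and Lpl (1.87). The authors list Lpl under lipid metabolism and not under Chol homeostasis. Abca1, the other main exporter, gave 0.57 with an adjusted p of 0.18 by limma.

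Of 11 transcription factors known to act on scavenger receptor genes, 10 were well above background on all 6 arrays. Of these, 1 rose, Irf8 (1.10), a factor of myeloid cells, and none fell, with a median of -0.02 (2.69% of all genes were called higher and 0.227% lower). Spi1 (1.22), which encodes PU.1, was called too, but was well above background on 1 of 3 normal chow arrays and entered the test through the high-Chol arrays, so its call is not counted as a rise. Pparg (0.43), Nfe2l2 (0.52) and Nr1h3 (LXRα, 0.01) did not pass, and nor did Ppara (-0.94) and Rxra (-0.53), for which the high-Chol arrays lay below all normal chow arrays. That was so for 14% of all genes with values on all 6 arrays.

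Genes with a pattern most like that of each receptor were sought among 14035 genes well above background on all 6 arrays, by the root mean square difference of the 6 values after centring each gene. The nearest to Msr1 were Fabp7 (0.13), Slc15a3 (0.16) and Csf2rb2 (0.17), and to Marco Gbp2 (0.23), Calhm6 (0.34) and Hbegf (0.35). Cd68 was nearest to a transcript without a current symbol (0.09), Cd300a (0.09) and H2-Aa (0.11). Cd163 was nearest to Fzd4 (0.11), Nr1h4 (0.12) and Wipf3 (0.16), and Cd36 to Nkain4 (0.09), a transcript without a current symbol (0.18) and Praf2 (0.19). For Scarb1 they were Gsn (0.06), Adamts2 (0.11) and Pltp (0.12), for Stab1 Ubald2 (0.03), 3830406C13Rik (0.03) and Bet1 (0.03), for Stab2 Vps26c (0.03), Pbdc1 (0.04) and Zfp414 (0.05), and for Mrc1 Ppp2r5c (0.04), Txn1 (0.06) and Mpo (0.06). With 6 arrays these are descriptions, and receptors with small differences have near neighbours more easily.

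**Figure D4:**
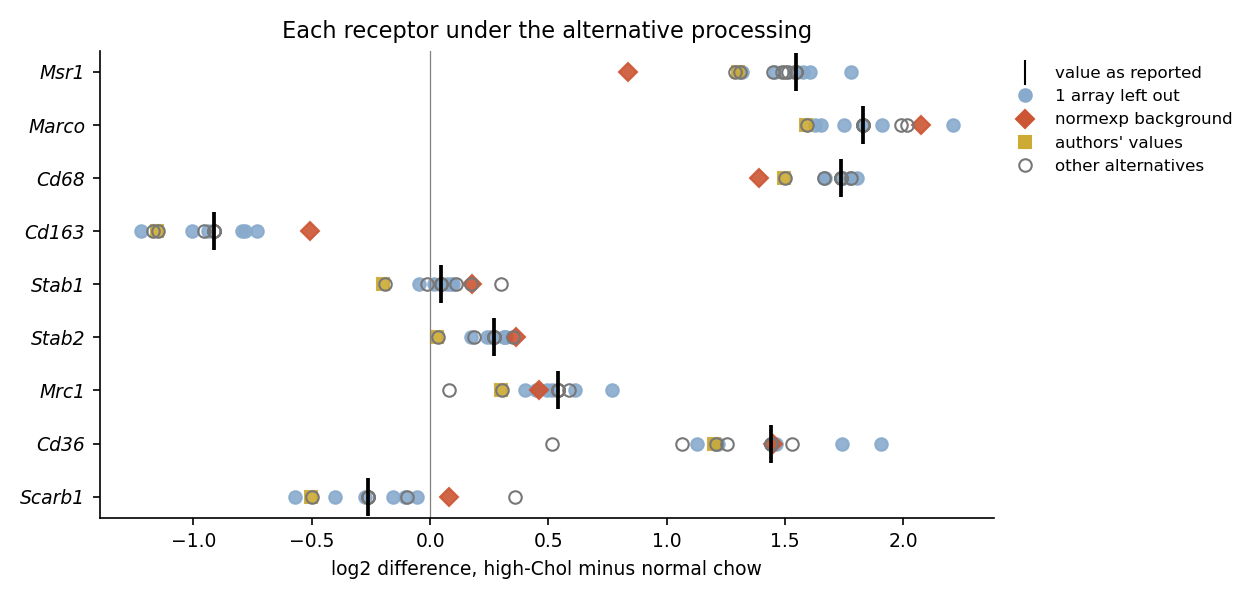
Difference between the diets (log2, high-Chol minus normal chow) of each receptor as reported (bar), with 1 array left out (filled circles), with a normexp background (diamonds), from the authors' deposited values (squares) and under the other alternatives (open circles). Msr1, Marco and Cd68 lie between 0.84 and 2.21 and Cd163 between -1.22 and -0.51 throughout, whereas Stab1 and Scarb1 fall on both sides of 0.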

How the data were processed

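Liver RNA from both diets of the apoE-KO mice was hybridized to one-colour Agilent 4x44K arrays, 3 per diet. The authors deposited the scanner output, in which spot intensity had been background-subtracted by Agilent Feature Extraction (9.5 on slide 1 and 9.1 on slide 2, per the file headers) and not normalized between arrays. The authors also deposited log2 values of 23458 probes, a single value for each diet, made in Gene Spring GX. Its normalization settings are not given in the sources used here. Set against the scanner output, its differences followed a line of slope 1.00 with offset -0.24, and its column medians were -0.0019 and -0.27, so scale and direction were settled, and centring was that of median scaling.

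Probes were taken by gene name among non-control spots. The log2 intensity minus the 75th percentile of each array was used, outlier spots (75 to 196 per array) were left out, and spots of a probe were averaged. Probes had to be well above background on the 3 arrays of either diet, and the brightest stood for its gene. High-Chol was tested against normal chow by limma 3.58.1 (R 4.3.3, functions lmFit and eBayes, no covariate) over 16730 genes, with Benjamini-Hochberg adjustment and a threshold of 0.05. The step was tested on simulated data. Gene names are those of the array, updated through the RefSeq table (assembly GRCm38.p6) where possible (23082 probes by accession, 6582 by symbol, 3073 by an older symbol, 8437 not). Positions of probes come from the annotation of the arrays (mm7). Further tools were Python 3.11.15 with pandas 2.3.3, numpy 2.4.6 and matplotlib 3.10.9, and the R package data.table (version 1.17.8).

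The alternatives were a normexp background (offset 50), median scaling, quantile normalization, dropping the filter on dim probes, asking for signal on all 6 arrays, the mean of a gene's probes, each probe by itself, slide as a block, leaving out each array, the methods' t-test and the authors' values. Genes named are the receptors, the list members called (otherwise the 2 with the largest difference) and the 3 nearest genes of each receptor. Timd4, Vsig4, Clec4f, Cx3cr1, Cxcl16, Scara3, Scara5, Lyn, Fyn, the paraoxonases, Abca1, Pparg, Ppara, Rxra, Nr1h3 and Nfe2l2 were named in addition, after their values were seen. Some single genes are not reported here. The receptors and lists were chosen with earlier results of these data known. The number of arrays limits the precision.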

Additional observations from a re-analysis of the deposited data

How the results depend on the processing

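Of the 139 alternative values of single receptors, 109 kept their direction and their side of the threshold, or moved by less than the spread between arrays. For the receptors called as reported, this held for 9 of 17 values of Msr1, 7 of 15 of Marco and 10 of 15 of Cd68. A receptor not called as reported could count among the 109 by keeping its sign and staying uncalled. No receptor was called by limma with a normexp background, without a filter on dim probes or with slide as a block, nor by the methods' t-test (0 each, with 4, 5, 4 and 3 receptors at an unadjusted p below 0.05, which 1.83%, 11.4%, 9.1% and 16.7% of all genes reached), against 3 as reported. Over all genes, 0%, 0.093%, 0.0658% and 0.03% were called in these 4 settings, compared with 2.92%. Cd68, Marco and Msr1 were the receptors called with median scaling, with quantile normalization, with probes asked to be well above background on all 6 arrays, and after averaging the probes of each gene. With 1 array left out, the number called was 1 to 5. Cd68 alone was called without normal chow array 3, high-Chol array 2 or high-Chol array 3, Cd68 and Msr1 without normal chow array 1, Cd68 and Marco without normal chow array 2, and these 3 together with Cd36 and Mrc1 without high-Chol array 1. Of all genes, 18.4% were called without high-Chol array 1 and 0.251 to 1.57% when any other array was left out. With a normexp background the difference of Msr1 was 0.84 (adjusted p of 1.00 by limma).

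The median difference of the receptors, 0.54 as reported, was 0.30 with median scaling and 0.30 from the authors' values, and 0.40 to 0.77 with 1 array left out. Median scaling moved the median of all genes from -0.02 to -0.26. The macrophage minus endothelial score, 0.76 as reported, was 0.62 with a normexp background, 0.91 with slide as a block and 0.69 to 0.81 with 1 array left out. The sign of Scarb1 turned with a normexp background (0.079) and within slide 1 (0.36). The sign of Stab1 turned with median scaling (-0.19), with slide as a block (-0.013), without normal chow array 3 (-0.049, the lowest value with 1 array left out, the highest being 0.096) and in the authors' values (-0.20). The causes were not tested. No paired analysis was possible because the labels number the replicates of each diet without tying a number to an array, so whether arrays of the diets belong together is unknown.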
